A study of Mus musculus with 2 samples.

Results

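The Iroquois genes Irx1, Irx2, Irx3, Irx4, Irx5 and Irx6 were followed in mouse calvarial osteoblast cultures between day 5 and day 12 of differentiation. All probe sets annotated with a member symbol were taken, which gave 6 probe sets for 6 genes, 1 for each, among 18193 genes on the array. The family was chosen because Irx5 was higher at day 12, so the values of that contrast are a description and no test was made. The cells came from the skull roof (calvaria) of newborn mice, had been depleted of cells bearing CD11b, a surface protein of myeloid cells, and were grown with 50 µg/ml ascorbic acid and 10 mM β-glycerophosphate, agents that both groups received. By the labels the groups differed only in the time of culture, 5 or 12 days, with 1 Affymetrix array for each. Strain, sex and the number of mice behind each culture were not given in the sources used here.

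Iroquois proteins are transcription factors of the TALE homeobox class, whose homeodomain carries a short extra loop. In mammals the genes lie in a pair of clusters, with Irx1, Irx2 and Irx4 in one and Irx3, Irx5 and Irx6 in the other. They pattern the limb, heart, nervous system and face, and recessive mutations of human IRX5 cause Hamamy syndrome, which includes craniofacial defects and fragile bones.

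The deposited values are signals on a linear scale with an arbitrary unit, and each array was scaled to the same average. Signals under the 60th percentile of their array (46.6 at day 5, 44.8 at day 12) were treated as not told apart from background, and this value is called the floor. With 1 array a day there is no replicate error, and every difference below is between these 2 arrays only. The call of a gene as higher or lower at day 12 needed a ratio of 2-fold or more, and a gene is called measured where its signal reached the floor on 1 array or both. Of 18193 genes, 10479 (57.6%) were measured. Signals of different probe sets depend on the probes as well as on the RNA, so levels are compared between days for 1 gene and not read as an order of genes.

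Within the family, 2 members of the Irx3, Irx5 and Irx6 cluster were clearly above the floor on both days, and only Irx5 differed between them by 2-fold or more. Of the 4 members measured, 1 was higher at day 12 by this threshold, 0 were lower and 3 differed by less. Over all measured genes, 3.56% passed the threshold upward and 1.73% downward. The family was picked on this contrast, so nothing is read from the comparison of these shares. The median log2 ratio of the 4, of which 2 are bounds, was 0.15, beside -0.05 over all measured genes, and it was 0.58 with the floor at the 50th percentile.

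Irx5, which shapes the gradient of repolarising current across the heart wall and takes part in facial and bone development, gave a day 5 signal of 632.0 and a day 12 signal of 1430. It stood at 13.6 times the floor at day 5 and 31.9 times the floor at day 12, so neither value is near the detection limit. The ratio was 2.26-fold, a log2 ratio of 1.18. A ratio this large or larger was found in 290 of the measured genes, 2.77% of them. In the brightest of 4 equal groups of measured genes by mean signal, which holds Irx5, 2.79% were at least 2-fold higher. Irx5 was therefore past the threshold by a small margin. A threshold of 3-fold, which 1.67% of measured genes passed upward, would leave it out.

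Irx5 has no second probe set that could repeat its value. The size of probe error in genes of like brightness can be given in its place. The brightest group held 1598 genes with at least 2 measured probe sets. Between the 2 brightest of these the log2 ratio differed by a median of 0.12, and the 95th percentile of that difference was 0.54. Of 41 such genes that passed 2-fold upward by their brightest probe set, all 41 had a second probe set with a ratio above 1, and in 32 it was also past 2-fold. These values cover differences between probes and not differences between cultures.

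Irx3, the neighbour of Irx5, is known for its part in the fast conduction system of the heart and in fat and limb progenitors. Its signal was 1669 at day 5 and 1842 at day 12, which was 35.8 and 41.1 times the floor. The log2 ratio was 0.14 (1.10-fold), smaller than the threshold. The ratio of Irx5 between the days was 2.05 times that of Irx3, a quotient that no single scaling factor per array can change. The signals of these 2 neighbouring genes therefore moved unequally between the arrays.

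The start site of Irx3, which was well above the floor on both arrays, can be shown as an example of a promoter of the cluster. RefSeq promoter windows on GRCm38.p6 were matched by symbol for 3 of the 6 members, Irx2, Irx3 and Irx4, and Irx1, Irx5 and Irx6 were not used here. Only the Irx3 window is printed, since it begins at the outer end of the gene record and so holds no transcribed base. The windows of Irx2 and Irx4 may hold transcribed bases. The 250 bases before the Irx3 start, on the minus strand at chr8:91801655-91801904, are printed 5′ to 3′ with every CG dinucleotide in capitals.
Irx3: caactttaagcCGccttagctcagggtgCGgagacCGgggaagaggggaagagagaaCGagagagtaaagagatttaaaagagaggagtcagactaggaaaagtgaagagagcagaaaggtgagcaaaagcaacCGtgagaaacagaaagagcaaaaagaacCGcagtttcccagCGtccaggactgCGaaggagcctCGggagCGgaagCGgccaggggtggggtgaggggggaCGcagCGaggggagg
The window holds 13 CG dinucleotides, where the median over 32851 windows of the same length was 6, and its GC content was 56.0% against a median of 52.4%. Purines (A and G), counted on the printed strand only, made up 73.6% of its bases, a share that 0.228% of all windows reached. This was not shared by the Irx2 and Irx4 windows, with 44% and 51.2% purines, which 85.1% and 44.5% of all windows reached. Windows of Irx2 and Irx4 had 19 and 22 CG dinucleotides and GC contents of 68.4% and 68.8%. The letters ACANNTGT, the site described for Iroquois proteins, were searched on both strands like every motif here and occurred in none of these 3 windows and in 6.31% of all windows. TGACAG, the core of MEIS and TGIF sites, also occurred in none of them and in 15.9% of all windows. The GC box GGGCGG had 2 matches each in the Irx2 and Irx4 windows and none in that of Irx3, while 32.7% of all windows held it. None of the 3 windows held TATAAA, which 12.4% of all windows did. The 3 windows were alike in holding more CG dinucleotides than the median window and no TATAAA. As many CG dinucleotides as in the Irx3, Irx2 and Irx4 windows, or fewer, were held by 70.6%, 82.1% and 86.7% of all windows. Neither trait is therefore rare among all windows.

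**Figure D1:**
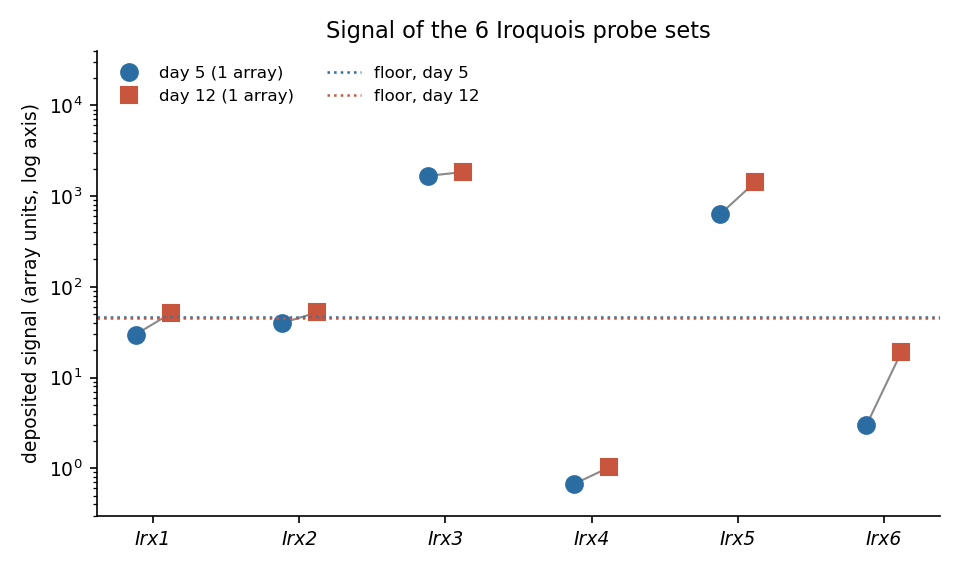
Deposited signal (log axis, array units) of the single probe set of each Iroquois gene, with a circle for the day 5 array, a square for the day 12 array and dotted lines for the floors of 46.6 and 44.8. Irx3 and Irx5 lie above the floors on both days, Irx1 and Irx2 cross them between the days, and Irx4 and Irx6 stay below; heights of different genes are not comparable.

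Irx1 and Irx2, which are expressed in developing lung, limb and neural tissue, were at the edge of detection. The signals were 29.8 at day 5 and 50.8 at day 12 for Irx1, and 39.7 and 52.2 for Irx2. Both were below the floor at day 5 and just above it at day 12, at 1.13 and 1.17 times its value. With the day 5 signal raised to the floor, Irx1 was at least 1.09-fold and Irx2 at least 1.12-fold higher. With the floor at the 50th percentile both genes lay above it on either day, with log2 ratios of 0.77 and 0.40, and with the floor at the 75th percentile neither gene was measured. No direction can be taken from values this low.

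Irx4, a factor of the heart ventricle, and Irx6, a factor of retinal neurons among other tissues, were below the floor on both days. Irx4 had signals of 0.670 and 1.02, far under the floor on either array. Irx6 had signals of 2.97 and 19.2, the second of which was 0.428 times the floor. No fold is given for either gene. Signals in this range vary widely between the arrays: of 7714 genes below the floor on both days, 43.0% had values that differed by 2-fold or more in either direction, and 6.94% had a quotient of day 12 over day 5 at least as large as that of Irx6.

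All 6 probe sets had a numerically higher signal on the day 12 array, compared with 48.9% of all genes and 43.7% of measured genes. For Irx4 and Irx6 both of the values compared were below the floor, and for Irx1 and Irx2 1 of them was. The count includes Irx5, on whose rise the family was picked, so nothing is read from it. The plot of ratio against signal shows Irx5 as the single member outside the 2-fold lines.

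**Figure D2:**
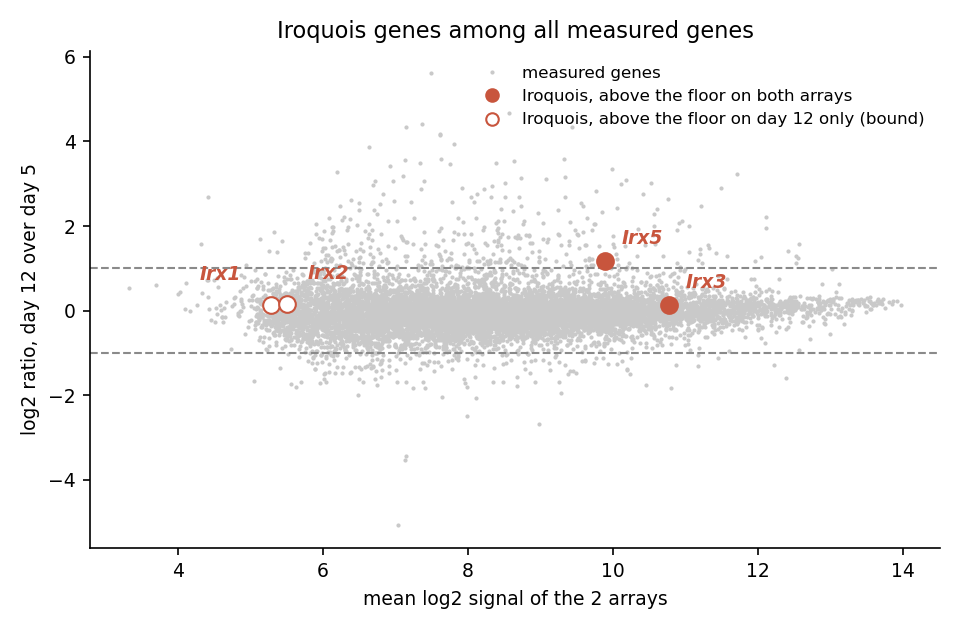
Log2 ratio of day 12 over day 5 (vertical) against the mean log2 signal of both arrays (horizontal) for 10479 measured genes in grey, with the 4 measured Iroquois genes in orange and dashed lines at 2-fold. Irx5 at 1.18 lies just above the upper line, and Irx3 at 0.14 lies within the bulk of genes of like signal; open circles for Irx1 and Irx2 are bounds.

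Genes that lie beside the Iroquois clusters did not pass 2-fold in either direction with the floor used here. Taking the protein-coding genes inside each cluster and the 5 on each side, there were 20 neighbours, of which 16 were analysed here and 13 were measured. None of the 13 reached 2-fold in either direction, beside the 3.56% and 1.73% over all measured genes, and the log2 ratios of their brightest probe sets ran from -0.63 to 0.56 with a median of 0.01.

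Fto, an RNA demethylase gene whose introns hold distant enhancers that act on Irx3 and Irx5, lies next to Irx3. Its signal was 987.4 at day 5 and 1200 at day 12, a log2 ratio of 0.28, with -0.09 in its other measured probe set. Beyond it, Aktip had signals of 450.1 and 433.1 (-0.06, and -0.54 in its other measured probe set). On the far side of Irx6, Mmp2, a gelatinase gene expressed by mesenchymal cells, had signals of 4909 and 5218 (0.09). Lpcat2, a phospholipid acyltransferase gene, went from 257.9 to 166.3 (-0.63), the lowest ratio of the 13 by the brightest probe set. With the floor used here Irx5, which was picked for its rise, was the only measured gene in this stretch past the threshold. Slc6a2, further out on the side of Irx6, had signals of 12.5, below the floor, and 47.0. It was past 2-fold with the 50th percentile floor (log2 ratio 1.26) and with a pseudocount (1.14).

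Around the other cluster, Ice1 had signals of 430.9 and 406.9 (-0.08). It encodes a subunit of a complex that acts in transcription of small nuclear RNA genes. Adamts16, a metalloprotease gene next to Irx1, was below the floor at 13.7 and 41.4. On the side of Irx4, Mrpl36 had 502.3 and 548.0 (0.13) and Lpcat1 349.7 and 290.0 (-0.27, with its 3 measured probe sets reaching down to -0.82). Ube2ql1 was the highest of the 13, at least 1.47-fold higher from a day 5 signal of 7.98 to 68.7 at day 12. With the 50th percentile floor Ube2ql1 and Adamts16 were each past 2-fold, and with a pseudocount Ube2ql1 was. Both genes were below the 60th percentile floor at day 5.

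**Figure D3:**
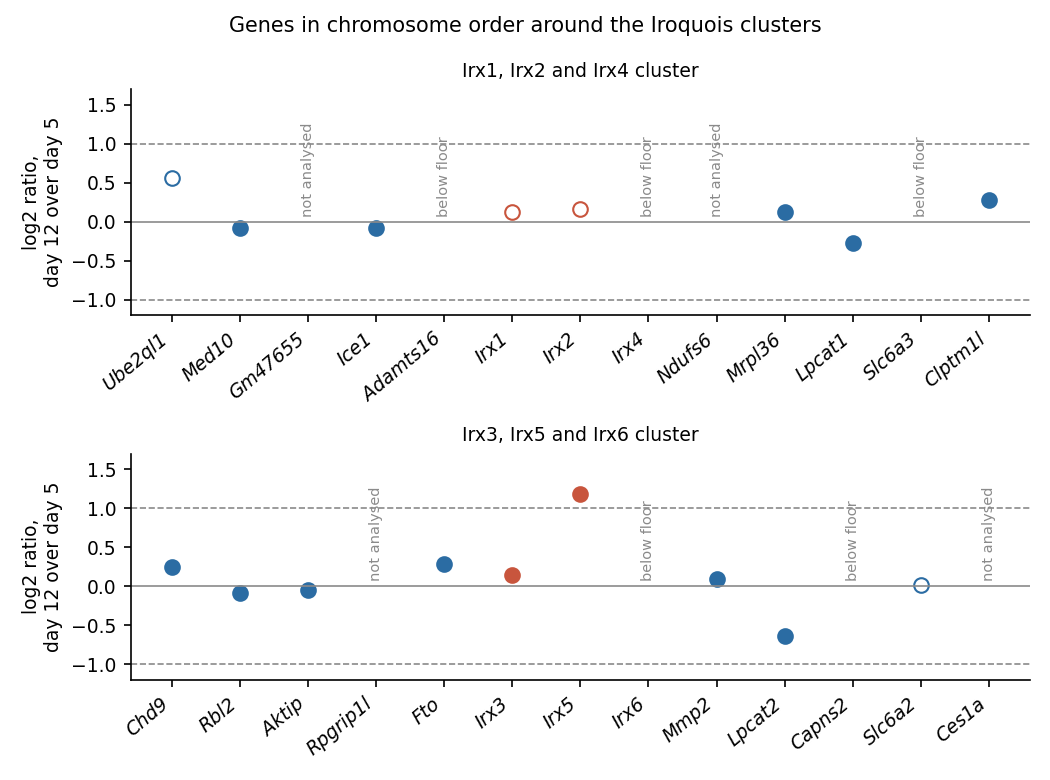
Log2 ratio of day 12 over day 5 for genes in chromosome order around each Iroquois cluster, with Iroquois genes in orange, neighbours in blue, open circles for bounds and dashed lines at 2-fold. Irx5 at 1.18 is the single point beyond a dashed line, while the neighbours, by their brightest probe sets, lie between -0.63 and 0.56; grey labels mark genes below the floor on both arrays or not analysed.

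The other TALE homeobox genes encode the MEIS and PBX cofactors of Hox proteins, the PKNOX proteins, the TGIF repressors and Mohawk (Mkx), a tendon factor. Of 12 genes listed, 11 were analysed here and 9 were measured. Upward, 0 of the 9 passed 2-fold, and downward 1 did, beside 3.56% and 1.73% of all measured genes, so neither count stands apart from the background. Their median log2 ratio was -0.40, and -0.05 over all measured genes. By the brightest probe set, 1 of the 9 had a ratio above 1 and 8 had a ratio below 1. Among all measured genes, 43.7% had a higher signal at day 12. With the median of the probe sets of each gene, the list median was -0.11. That setting takes in probe sets below the floor, raised to it, which can draw a ratio toward no change.

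Pknox2 was the member past the threshold, at 148.2 on day 5 and 71.5 on day 12 (2.07-fold lower). This call was lost with a pseudocount, with the median of its probe sets, after median centring or loess, and with the 75th percentile floor, under which it was not measured. Only 1 of its 2 probe sets was measured, so their median takes in a value at the floor. Pbx3, a Hox cofactor gene, had signals of 685.6 and 461.0 and a log2 ratio of -0.57. Mkx had 204.7 and 139.0 (-0.56). Pbx2 had 262.7 and 198.9 (-0.40), but its measured probe sets ranged from -0.47 to 0.01. Pknox1 had 215.7 and 202.8 (-0.09), and its probe sets reached 0.31. Meis2 was the only one of the 9 with a ratio above 1, with 193.4 and 206.5 (0.09, and -0.09 in its other probe set).

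Published work on IRX5 has tied it to the zinc finger proteins GATA3 and TRPS1 and to control of the chemokine gene Cxcl12. These genes, the other GATA factors and the receptor gene Cxcr4 made up a list of 9, of which 3 were measured. Trps1, a GATA-type repressor of cartilage and bone, went from 440.9 on day 5 to 918.2 on day 12, which was 2.08-fold higher. Its 3 measured probe sets gave log2 ratios between 0.60 and 1.13. The log2 ratio from the median of all 4 probe sets, which takes in a probe set below the floor, was 0.86, short of 2-fold. Cxcl12, which attracts cells that carry Cxcr4, had signals of 2548 and 3254 (0.35, and 0.72 in its other measured probe set). Gata2 had 107.8 and 85.7 (-0.33). Gata3 was below the floor on both days at 20.8 and 2.48, as were Gata1, Gata4, Gata5, Gata6 and Cxcr4. Of the genes named with IRX5, Trps1 and Cxcl12 were therefore measured here and Gata3 was not.

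Osteoblast markers could be read from 6 genes, all of which were above the floor on both arrays. By day 12, 4 of the 6 were past 2-fold upward, beside 3.56% of all measured genes. The median log2 ratio of the 6 was 1.92. Col1a1 and Col1a2, the collagen I genes, were short of the threshold at 1.55-fold and 1.16-fold higher. Alpl, the alkaline phosphatase gene, was 4.90-fold higher, Ibsp (bone sialoprotein) 9.41-fold by its brightest probe set (a log2 ratio of 3.23, and 5.24 in its other one), Pth1r, the parathyroid hormone receptor gene, 4.18-fold and Sp7 (osterix) 3.45-fold. Among 5 measured factors of the osteoblast and skull, Sp7 and Dlx5 (2.67-fold) were higher and Msx2 was 2.67-fold lower. Only 1 of the 2 probe sets of Msx2 was measured. Their median, with the other raised to the floor, gave a log2 ratio of -0.74. Alx1 and Prrx1 had log2 ratios of -0.35 and -0.05. The other measured probe set of Alx1 went the other way at 0.31, and the 5 of Prrx1 ranged from -0.49 to 0.08. The ratio of Irx5 was smaller than those of Sp7 and Dlx5. Of 6 measured osteocyte genes, 4 passed 2-fold upward, beside 3.56% of all measured genes. These 4 were Dmp1 (20.2-fold) and, as bounds from below the floor, Dkk1, Phex and Mepe (at least 14.7-fold, 11.9-fold and 6.47-fold). The other measured probe set of Dkk1 gave a log2 ratio of 1.45. Pdpn and Gja1 of the same list had log2 ratios of -0.63 and -0.06.

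Markers of other cell types moved between the same arrays. Of 10 measured myeloid markers, 7 passed 2-fold upward, beside 3.56% of all measured genes. Log2 ratios of these 10 markers ran from -0.02 to 2.13 with a median of 1.14, and that of Irx5 was 1.18. Their summed signal over 11 genes was 4264 at day 5 and 10052 at day 12, and Itgam, which encodes CD11b itself, was below the floor on both days at 14.6 and 35.4. Of 12 measured chondrocyte markers, 8 passed 2-fold downward, beside 1.73% of all measured genes. The summed signal of the 12 went from 38234 to 16999. None of 7 endothelial markers was above the floor, with sums of 61.1 and 62.0. Skeletal muscle markers summed to 346.8 and 164.8, with 2 of 7 measured, Acta1 3.23-fold lower and Des at least 1.09-fold lower. The part of these cells in the Irx5 ratio was not tested. In a bulk sample more cells of a type and more RNA per cell cannot be told apart.

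Of 6 keratinocyte markers, 2 were measured and none passed 2-fold, with Epcam at least 1.46-fold higher and Trp63 1.14-fold lower. Among 6 neural and glial markers analysed, 3 were measured. S100b, which chondrocytes also express, was 2.18-fold lower and Tubb3 2.38-fold higher, while Sox10, Gfap and Sox2 were below the floor.

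**Figure D4:**
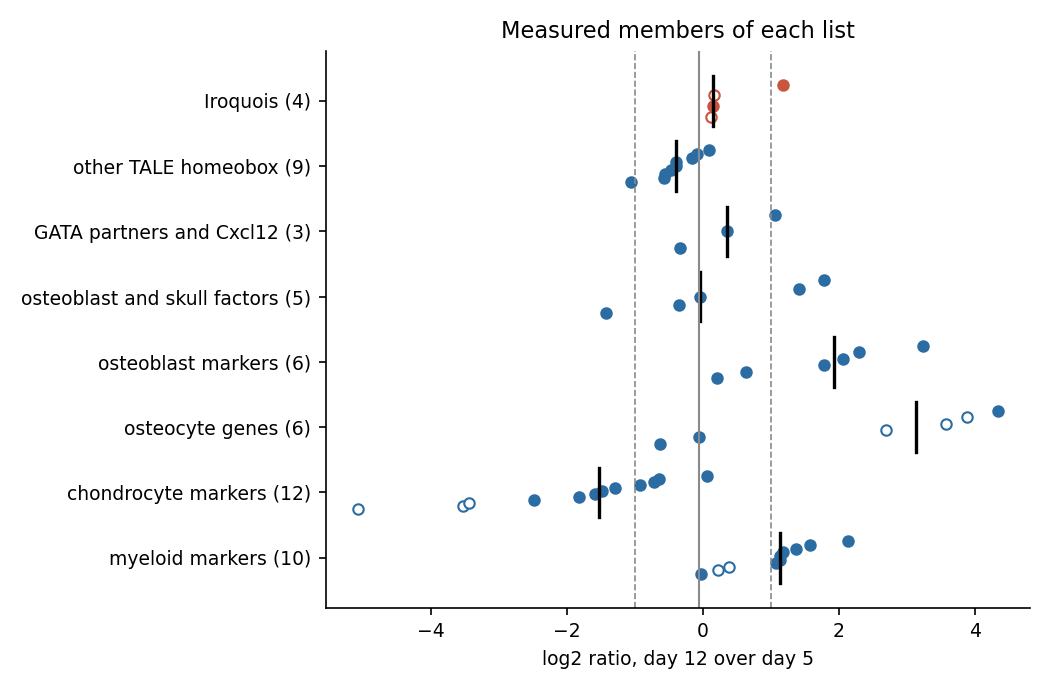
Log2 ratio of day 12 over day 5 of each measured member of 8 lists (number of measured genes in brackets), with open circles for bounds, a black bar for the median of each list, a grey line at the median of all measured genes (-0.05) and dashed lines at 2-fold. The other TALE homeobox genes lie mostly left of the grey line with a median of -0.40, and the myeloid and osteoblast markers lie to its right with medians of 1.14 and 1.92.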

How the data were processed

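Total RNA of 2 cultures was labelled with biotin and hybridised to 1 array each, per the labels' protocols. The authors deposited linear signal intensity for 45101 probe sets, made with GCOS 1.4 and MAS5 per the submitters' processing notes. The mean after trimming 2% at each end was 200.0 on both arrays. Detection calls and the genome build were not given in the sources used here. A change in the total RNA of a cell would not show on arrays scaled in this way.

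Of 45037 probe sets other than 64 controls, 34945 had 1 symbol in the platform annotation, 932 several and 9160 none. Of those with 1 symbol, 34741 were matched by gene identifier to a table of GRCm38.p6, and its symbol was used. Each gene was represented by its brightest probe set (mean log2 signal of both arrays). Values below the 60th percentile of an array were raised to it, which makes ratios of such genes bounds. The members and all lists were chosen with earlier results of these data known. The genes named were drawn from a rule that took every Iroquois gene, list members past 2-fold and up to 4 bright ones, neighbours past 2-fold and the nearest on each side, and the genes closest in signal to each member. Ube2ql1, Slc6a2, Sox10, Gfap, Sox2, Itgam and the genes listed as below the floor were named after their values were seen.

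Alternatives covered the scaling (loess, quantile normalisation, median centring), the low end (a pseudocount of 16, or the 50th or 75th percentile as floor), the probe sets (their median per gene, or none of shared sequence) and the threshold (1.5-fold or 3-fold). The calculation was tested on simulated data with planted changes. Python 3.11.15, numpy 2.4.6, pandas 2.3.3 and statsmodels 0.14.6 were used.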

Additional observations from a re-analysis of the deposited data

How the results depend on the processing

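The log2 ratio of Irx5 lay between 1.16 and 1.23 and that of Irx3 between 0.11 and 0.20 as deposited and under the 8 alternatives of scaling, floor and probe sets. Irx5 was past 2-fold under each of them, and 2.13% to 3.18% of measured genes had a ratio as large. The percentile floors and the probe set alternatives could not change the ratios of Irx3 and Irx5. Each gene has 1 probe set, not of shared sequence, far above the floor. Only the scaling and the pseudocount could move these ratios. With a 3-fold threshold 0 members were counted as higher. The log2 ratio of Irx1 was 0.77 with the 50th percentile floor and 0.54 with a pseudocount, and that of Irx2 was 0.40 with the 50th percentile floor. With the 75th percentile floor 2 members were measured. Neighbours counted as higher numbered 3 with the 50th percentile floor and 2 with a pseudocount, from values below the main floor at day 5. The median of the measured Iroquois genes ran from 0.15 to 0.66, that of the other TALE genes from -0.40 to -0.11, and that of osteocyte genes from 1.17 with the 75th to 3.94 with the 50th percentile floor. No count of Irx members at least 2-fold lower was above 0 under any of these settings. Low signal over background limits Irx1, Irx2, Irx4 and Irx6, and with 1 array per day the spread between cultures was not measured. No paired analysis was possible because each day has 1 array and the values come from no test.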

Other observations

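Irx3 and Irx5 are known in fat precursors as regulators that lie downstream of enhancers in Fto, and a list of 7 genes of heat-producing and general fat differentiation was read with this in mind. Ucp1, the uncoupling protein gene of brown fat, was below the floor on both days at 2.12 and 0.822, as were Ppargc1a and Cidea. Of the 4 measured genes none passed 2-fold, and their median log2 ratio was -0.28. Pparg, the main factor of fat formation, had signals of 130.0 and 89.3 (-0.54), and Prdm16, a brown fat factor, 137.4 and 101.8 (-0.43, but 0.25 in its other measured probe set). Cebpa had 88.4 and 81.2 (-0.12) and Dio2, which activates thyroid hormone, 50.3 and 65.6 (0.38). Among 5 measured adipocyte markers Lpl, a lipase gene also expressed by macrophages, was 2.11-fold higher. The other 4 had log2 ratios between -0.83 and -0.12.

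Of 4 genes described as regulated by Iroquois factors in the heart, Gja1, the connexin 43 gene, was measured. Its signal was 5169 at day 5 and 4953 at day 12 (-0.06), and its 6 probe sets ranged from -0.65 to 0.02. Kcnd2, Gja5 and Bmp10 were below the floor on both days.

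The genes nearest to each member over the log2 signals of the 2 arrays were found by Euclidean distance, which mixes levels of different probe sets and so describes these deposited signals only, not a shared pattern of expression. Nearest to Irx5 were Nrbf2 (distance 0.17), Mcur1, Sdc3, Mgll and Hpgd (up to 0.24), and these 5 were the only genes within 0.25. Among genes of the lists the nearest were Lpl (0.26), Csf1r (0.48) and Trps1 (0.82). Csf1r, the macrophage growth factor receptor gene, had signals of 811.6 and 1778. Irx3 had 193 genes within 0.25, led by Tgoln1, Eif3d, Hspa4, Colgalt1 and Ebp, and its nearest list gene, Pdpn, was 0.90 away. Irx1 and Irx2 had 339 and 336 genes within 0.25, since all genes below the floor at day 5 share 1 value there. Within the lists they were each other's nearest gene, at 0.04.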
